A study of Homo sapiens with 10 samples.

Results

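The HOX genes are the homeobox transcription factor genes that lie side by side in 4 chromosomal clusters, HOXA, HOXB, HOXC and HOXD. All symbols made of one of these cluster names and a number from 1 to 13 were taken from the gene list of the count tables, which gave 39 protein-coding members of the 28281 symbols listed in both tables. The rule uses the names alone. HOXA holds 11 of them (chr7:27092993-27200091, minus strand), HOXB 10 (chr17:48528526-48728750, minus strand), HOXC 9 (chr12:53938831-54056030, plus strand) and HOXD 9 (chr2:176087487-176190907, plus strand), by RefSeq on the hg38 assembly. The study measured poly(A)-selected RNA of 2 human lung adenocarcinoma (LUAD) cell lines, A549 and H1944, with APEX1 knocked out or left intact. APEX1 encodes APE1, an endonuclease of base excision repair, and the study's title ties it to transcription through G-quadruplexes, folded structures of G-rich DNA. The groups were A549 KO (3 libraries, named 16, 65 and 66 in the table and taken as KO because its other columns are named WT), A549 WT (3 libraries, 1 to 3), H1944 KO (2 libraries) and H1944 WT (2 libraries). A549 was grown in DMEM and H1944 in RPMI1640, both with serum, with no treatment or time point labelled. The labels do not say how the knockout was made, whether a KO group is 1 clone or several, or whether libraries came from separate cultures, and p-values therefore reflect library-to-library spread that could be purely technical.

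HOX proteins tell cells of the embryo where along the head-to-tail axis they lie. Genes with the same number in different clusters are paralogs. Low-numbered (anterior) genes sit at the 3′ end of each cluster and are transcribed early and towards the head, and high-numbered (posterior) genes sit at the 5′ end and are transcribed later and towards the tail and the limb tips. Adult cells keep a combination of active HOX genes from their origin, held silent by Polycomb proteins or active by trithorax proteins. In the embryo, retinoic acid switches HOX genes on. HOXA5 and HOXB5 are known for roles in mouse lung development, while genes of the posterior end, such as HOXB13 in prostate and HOXD13 in digits, are known from other organs.

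The promoters of 3 members are printed because the study is about G-rich DNA: HOXD13 and HOXC4 changed in H1944 KO cells, and HOXA13, the HOXD13 paralog, did not pass the test. Each runs 5′ to 3′ on the gene's strand from 250 bases before to 50 bases after a RefSeq transcription start of GRCh38.p14, and capitals mark runs of at least 3 G or 3 C. The HOXD13 promoter (chr2:176092471-176092770, plus strand) lies inside the RefSeq span of that gene, downstream of its outermost start. The HOXC4 promoter (chr12:54016638-54016937, plus strand) is also that of HOXC5, and the HOXA13 promoter is chr7:27200042-27200341 (minus strand).
HOXD13: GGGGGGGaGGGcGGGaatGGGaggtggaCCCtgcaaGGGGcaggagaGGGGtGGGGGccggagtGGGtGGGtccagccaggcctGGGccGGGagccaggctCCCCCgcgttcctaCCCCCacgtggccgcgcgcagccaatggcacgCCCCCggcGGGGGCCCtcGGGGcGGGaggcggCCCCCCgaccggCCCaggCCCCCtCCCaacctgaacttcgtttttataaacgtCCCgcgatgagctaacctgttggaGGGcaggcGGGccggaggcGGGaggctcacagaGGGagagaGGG
HOXC4: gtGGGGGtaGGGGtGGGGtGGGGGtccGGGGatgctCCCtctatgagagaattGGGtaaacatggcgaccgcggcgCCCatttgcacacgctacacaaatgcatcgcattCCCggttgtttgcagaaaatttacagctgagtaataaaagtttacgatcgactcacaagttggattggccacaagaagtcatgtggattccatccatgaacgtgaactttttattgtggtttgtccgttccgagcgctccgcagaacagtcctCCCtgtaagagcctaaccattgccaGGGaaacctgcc
HOXA13: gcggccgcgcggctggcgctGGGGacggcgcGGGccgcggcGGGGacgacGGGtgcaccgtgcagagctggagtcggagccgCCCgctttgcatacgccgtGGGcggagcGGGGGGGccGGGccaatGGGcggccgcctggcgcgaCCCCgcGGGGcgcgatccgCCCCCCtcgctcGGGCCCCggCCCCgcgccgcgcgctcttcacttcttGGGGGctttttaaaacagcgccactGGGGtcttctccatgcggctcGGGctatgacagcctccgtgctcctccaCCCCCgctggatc
All 3 hold the sequence motif searched for, 4 runs of at least 3 G with loops of 1 to 7 bases of any kind, on either strand. The HOXD13 promoter has 19 runs of G and 10 runs of C and a GC content of 74.0%, while the HOXC4 promoter has 7 and 4 and a GC content of 51.7%, with most of its G runs at the upstream end. The RefSeq table held 26 distinct promoter windows for 20 of the 39 members, and 8 of these windows (30.8%) held the motif, against 24.9% of the 34943 distinct windows in the table. The members with such a promoter were HOXA3, HOXA6, HOXA13, HOXB1, HOXC4, HOXC5, HOXD1, HOXD12 and HOXD13. The 3 printed promoters all come from these members. Of other members called in H1944 KO, HOXA6 had a window with the motif. HOXA7 and HOXA10 had only windows without the motif, and HOXA3 had windows of both kinds. HOXB13 and HOXC13 had no window. Whether the motif goes with a change in KO cells was not tested. A motif match describes the letters of the window and does not show that a G-quadruplex forms there or that APE1 binds.

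The 10 libraries held 18314224 to 30219850 counts, so 3 counts, taken here as the floor of detection, are worth 0.0993 to 0.164 CPM (counts scaled to the library total) before further scaling. APEX1 itself was lower in the KO libraries of both lines, at 58.6, 64.3 and 109 CPM in A549 KO against 165, 264 and 247 CPM in A549 WT, and at 85.5 and 85.8 CPM in H1944 KO against 239.7 and 238.6 CPM in H1944 WT. The edgeR log2 fold change was -1.51 (SE 0.30, adjusted p = 0.521) in A549 and -1.48 (SE 0.04, adjusted p = 6.4e-19) in H1944. The A549 libraries formed 2 sets that cut across genotype: KO 65 and WT 1 held 5945 and 4839 counts of the ribosomal gene RNA28SN4, while KO 16, KO 66, WT 2 and WT 3 held none and had 6.45% to 14.2% of their counts on ribosomal RNA symbols, against 0.337% in KO 65 and 0.284% in WT 1. A549 WT 2 and WT 3 differed by a chi-square of 1.89 per gene, while they differed from WT 1 by 225 and 223, and KO 16 and KO 66 differed by 126, while they differed from KO 65 by 256 and 222. NKX2-1, which marks the distal lung lineage, had 0 counts in all H1944 libraries and at most 0.14 CPM in A549, so this defining lung marker was at or near 0 in both lines. Whether the counting used strand is not given in the sources used here. The spans of 11 members, introns included, overlap another member's span (HOXA3 with HOXA4, HOXA5 and HOXA6, HOXB3 with HOXB4, HOXC4 with HOXC5 and HOXC6, HOXD3 with HOXD4). Reads of these neighbours and of antisense transcripts may therefore not be fully told apart from theirs.

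Each line transcribed a broad stretch of the HOXA, HOXB and HOXC clusters and little of HOXD. Counting a gene as transcribed when every library of a group held at least 1 CPM, scaled by the trimmed mean of M-values (TMM), 25 of 39 members passed in A549 KO, 25 in A549 WT, 26 in H1944 KO and 24 in H1944 WT. The 20 members that passed in all 4 groups were HOXA2, A3, A5, A7 and A10, HOXB2, B3 and B5 to B9, HOXC4, C6, C8 to C11 and C13, and HOXD8. Another 7 stayed under 1 CPM in every library, HOXB1, HOXC12, HOXD1, HOXD3, HOXD4, HOXD9 and HOXD12. HOXB1, which patterns the hindbrain, had no count in 9 of 10 libraries.

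Levels of different genes were compared per kilobase of transcript (CPM per kb). HOXB7, a mid-cluster gene often reported as raised in carcinomas, had the highest level in A549, at 18.6, 16.5 and 19.03 CPM per kb in A549 KO 16, 65 and 66, against 15.9, 30.2 and 30.1 CPM per kb in A549 WT 1, 2 and 3. WT 1 stood apart from WT 2 and WT 3 here, and the KO libraries lay between them. Its mean was 18.01 ± 1.37 CPM per kb in A549 KO and 25.4 ± 8.21 CPM per kb in A549 WT (SD, n = 3 each). The next levels in A549 KO were those of HOXB8 (11.7 ± 1.297), HOXB6 (9.99 ± 1.13) and HOXB3 (9.63 ± 0.954 CPM per kb), genes of the same cluster whose ranges overlapped. In A549 WT they were those of HOXB6 (11.01 ± 0.446), HOXB8 (10.5 ± 0.976) and HOXC9 (8.85 ± 2.08 CPM per kb), again with overlapping ranges.

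H1944 had another leading gene. HOXC10, known for its place in hindlimb and lumbar spinal cord patterning, had 23.9 and 25.8 CPM per kb in H1944 KO and 27.4 and 27.97 CPM per kb in H1944 WT. No other member reached this level in H1944, and in A549 it stayed at 1.04, 1.196 and 1.11 CPM per kb in the KO libraries and 0.889, 1.42 and 1.73 CPM per kb in the WT libraries. HOXB7 came next in H1944, at 18.7 and 17.9 CPM per kb in KO and 15.5 and 16.2 CPM per kb in WT. The next levels in H1944 KO, with overlapping ranges, were those of HOXA10 (9.403 and 8.21) and HOXB2 (7.504 and 8.48 CPM per kb in KO 1 and KO 2), while in H1944 WT HOXA3 (7.75 and 7.74), HOXB6 (7.06 and 7.803) and HOXC4 (7.899 and 6.93 CPM per kb) lay close together.

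Summed over the clusters, HOXB made up 55.1% to 58.0% of the per-kilobase HOX level in A549 KO libraries and 52.7% to 58.2% in A549 WT libraries. In H1944 the HOXB share was 38.1% to 38.5% in KO and 32.3% to 32.7% in WT. The HOXC share in H1944 was 32.99% to 35.17% in KO and 39.4% to 40.7% in WT, and the HOXD share 4.82% to 5.49% in KO and 3.16% to 3.37% in WT. The summed level of all members was close in the 2 genotypes of H1944, 122 CPM per kb in both KO libraries and 121 and 123 CPM per kb in the WT libraries, so in H1944 the shares differed between the genotypes while their total did not separate them.

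**Figure D1:**
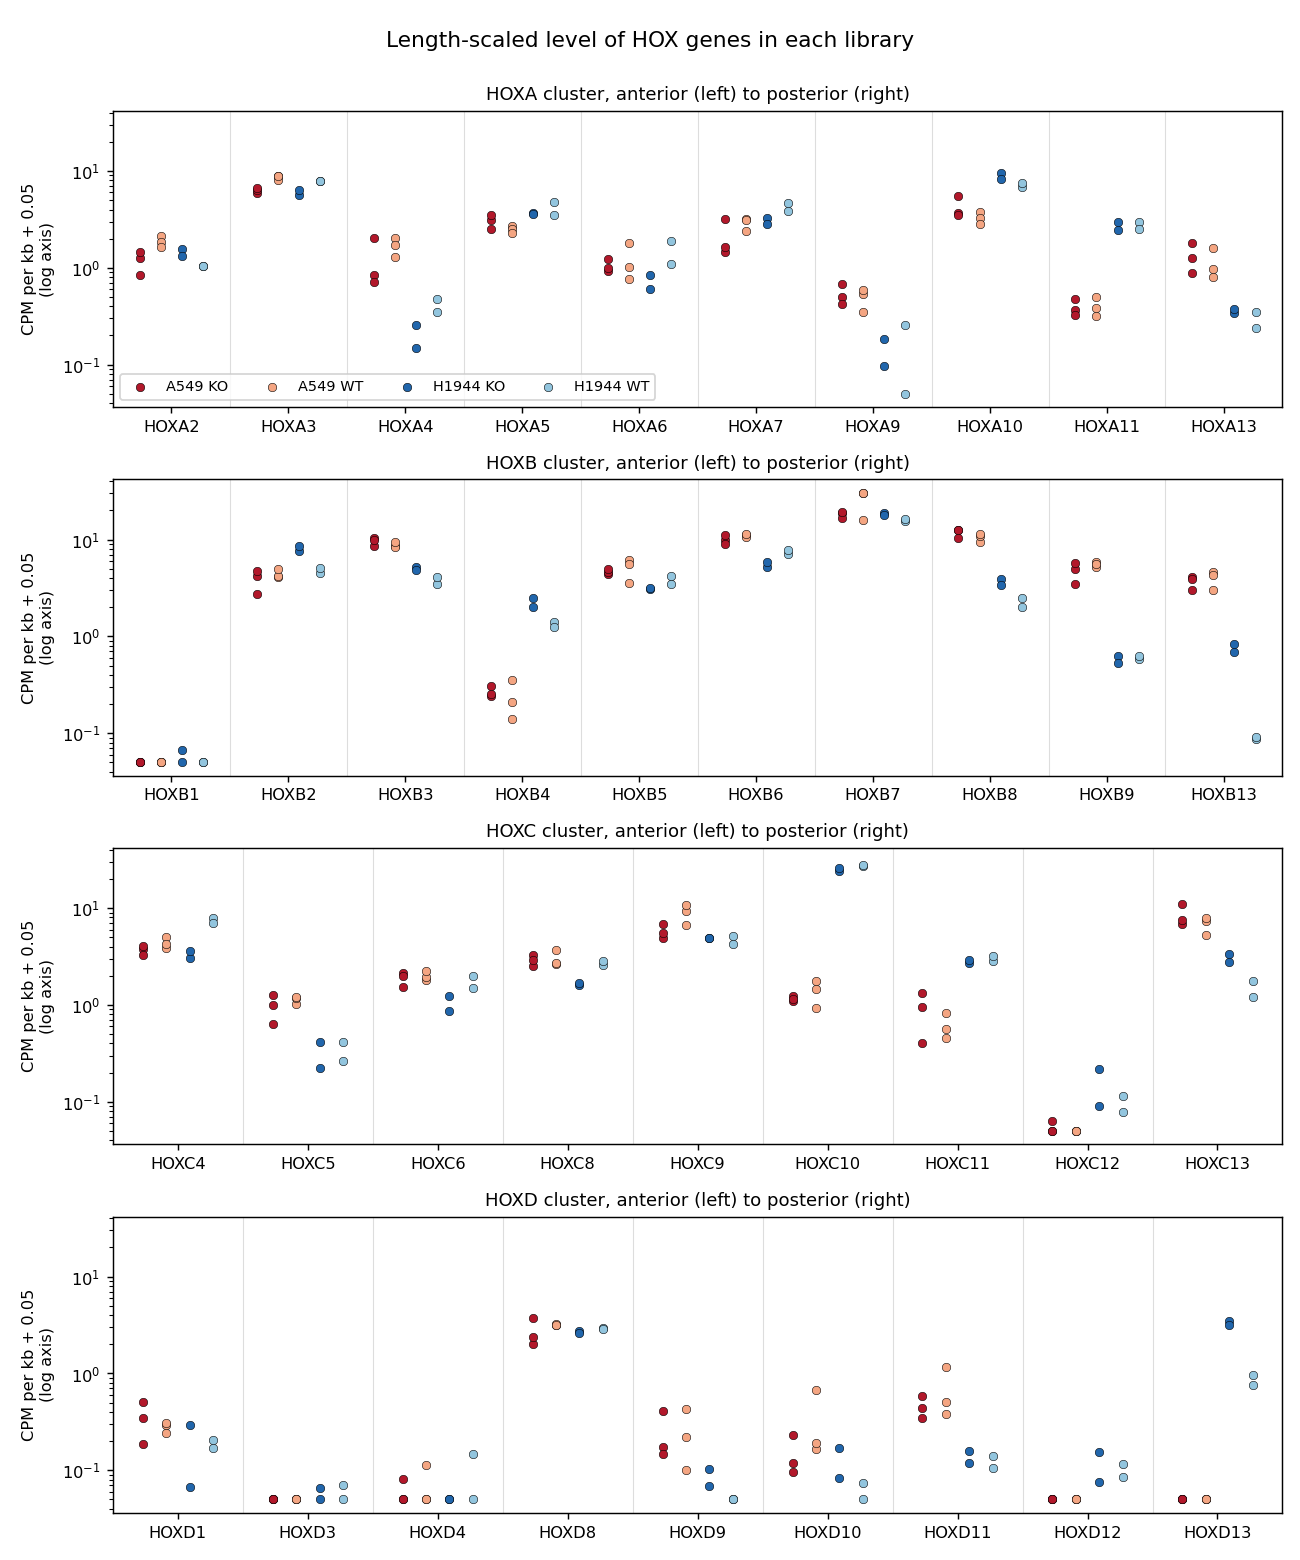
Length-scaled level (CPM per kb plus 0.05, log axis) of the HOX genes in each of the 10 libraries, with 1 panel per cluster and genes in order from anterior to posterior; each point is 1 library and colours mark the 4 groups. HOXC10 is higher in all H1944 libraries than in any A549 library, HOXD13 is at 0 in all A549 libraries, and most HOXD genes are near the bottom of the axis.

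Setting A549 WT against H1944 WT shows how far the HOX codes of the 2 lines differ before APEX1 is lost. Of 32 members tested, 13 were higher in A549 WT (40.6%, against 20% of all 16857 genes tested) and 8 were lower (25%, against 21.2%), at an edgeR quasi-likelihood adjusted p under 0.05. Together 65.6% of the tested members differed, against a background of 41.2%, and the median log2 fold change was 0.48 over the members and 0.01 over all genes. At 2-fold or more, 10 members (31.2%, background 14.5) were higher and 6 (18.8%, background 16) were lower. The lines were tabulated in separate files and grown in different media, so line and any such batch cannot be told apart. H1944 WT 1 and WT 2 held 2935 and 4963 counts of RNA28SN4, and 0.139% and 0.231% of their counts on ribosomal RNA symbols. In this they resembled A549 WT 1 and not A549 WT 2 and WT 3, so the contrast sets both A549 library sets against H1944.

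The posterior genes differed in both directions. HOXB13, which marks prostate and hindgut, had 10.2, 15.9 and 14.8 CPM in A549 WT against 0.1303 and 0.1403 CPM in H1944 WT. Those were 874 counts in A549 WT and 6 in H1944 WT, a depth-scaled count ratio of 94.3 (95% exact interval 43.2 to 258, counting error only), and the log2 fold change was 6.60 (SE 0.37, adjusted p = 8.6e-04). HOXB9 was also higher, at 15.1, 13.4 and 14.1 CPM in A549 WT against 1.39 and 1.496 CPM in H1944 WT (log2 fold change 3.30, SE 0.19). So were HOXC13, a regulator of hair keratins, at 12.8, 17.9 and 19.2 against 2.78 and 4.11 CPM (log2 fold change 2.27), and HOXA13, which shapes distal limbs and the genital tract, at 7.79, 3.799 and 4.66 against 0.956 and 1.496 CPM (log2 fold change 2.14). No A549 WT library overlapped an H1944 WT library for any of these 4 genes.

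HOXD13, known for digit formation, went the other way. It had no count in any of the 6 A549 libraries, while H1944 WT had 2.04 and 1.59 CPM, so its level was at least 13.6-fold lower in A549 WT, taking 3 counts per library as the floor. In the KO libraries, set against H1944 KO (7.71 and 6.997 CPM), it was at least 53.9-fold lower in A549. HOXC10 had 1.72, 2.75 and 3.34 CPM in A549 WT against 53.1 and 54.1 CPM in H1944 WT (log2 fold change -4.36, SE 0.30, adjusted p = 0.00116). HOXA11, needed in the forelimb and uterus, had 0.622, 0.778 and 1.04 CPM in A549 WT against 6.78 and 5.61 CPM in H1944 WT (log2 fold change -2.92, SE 0.29). HOXC11 (-2.39) and HOXA10 (-1.14 on the log2 scale) were lower as well, so posterior genes of the HOXA and HOXC clusters were split between the lines, with group 13 higher and groups 10 and 11 lower in A549 WT.

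Among central genes, HOXB8 had 17.1, 19.6 and 20.5 CPM in A549 WT against 4.47 and 3.55 CPM in H1944 WT (log2 fold change 2.25, SE 0.20), and HOXA4 was higher at 2.15, 3.43 and 2.87 against 0.738 and 0.514 CPM (2.16). HOXB4, known for expanding blood stem cells, was lower at 0.335, 0.595 and 1.13 CPM in A549 WT against 5.08 and 4.49 CPM in H1944 WT (log2 fold change -2.79, SE 0.49). Its annotated span lies inside that of HOXB3, which was higher in A549 WT (log2 fold change 1.22), and their reads may not be fully told apart. HOXB5 was not called (0.40, adjusted p = 0.303). Other calls were HOXD11 (3.05), HOXC5 (1.90), HOXC9 (0.93), HOXA2 (0.87) and HOXB6 (0.57), all higher, and HOXC4 (-0.79) and HOXA5 (-0.75), both lower, as log2 fold changes. HOXD11 had 2 and 3 counts in H1944 WT, which is within the floor, and 1.72, 0.503 and 0.707 CPM in A549 WT 1, 2 and 3. The size of its difference is therefore uncertain, and limma-voom did not call it (adjusted p = 0.0503). The 11 tested members that were not called included HOXA3, HOXB7 and HOXD8, and their log2 fold changes lay between -0.56 for HOXA7 and 2.11 for HOXA9, whose SE was 1.06. HOXB1, HOXC12, HOXD3, HOXD4, HOXD9, HOXD10 and HOXD12 were below the count filter.

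Only 5 of the 21 calls, those of HOXA11, HOXB8, HOXB9, HOXB13 and HOXC10, stood whichever WT library was left out. Without H1944 WT 1 there were 3 higher and 3 lower calls, without H1944 WT 2 there were 4 and 2, and without A549 WT 3 there were 8 higher ones. Without A549 WT 1, the library of the other A549 set, the calls rose to 16 higher and 9 lower. The same contrast in the KO libraries of the lines gave 18 calls, 16 of them shared with the WT libraries and of the same sign, which is 16 of 21 and 16 of 18. HOXB13 kept its direction there with a log2 fold change of 2.33, and the calls of HOXA2, HOXA5, HOXC4, HOXC5 and HOXC9 were not made. The shares of all genes called under these alternatives are not given here, so these counts have no background beside them.

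**Figure D2:**
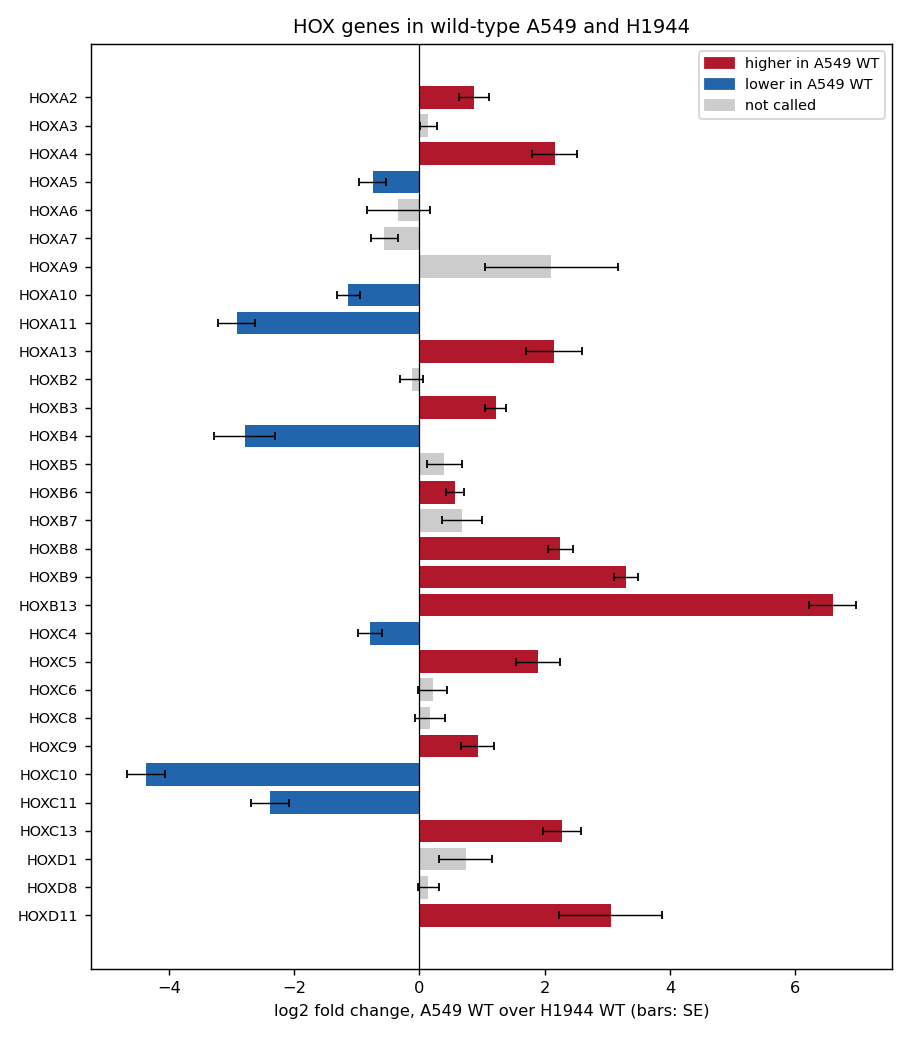
Log2 fold change, A549 WT over H1944 WT, of tested HOX genes in cluster order (bars: SE of the edgeR fit; red higher and blue lower in A549 WT at adjusted p under 0.05, grey not called). HOXD13, at 0 in every A549 library, is left out; HOXB13 reaches 6.60 and HOXC10 -4.36, while their neighbours lie between.

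In H1944 KO cells, members of all 4 clusters were called, in both directions in HOXA, HOXB and HOXC. Of 29 members tested, 10 were higher in KO (34.5%, against 33.2% of all 16626 genes tested) and 8 were lower (27.6%, against 33.9%), so the share called, 62.1%, was near the background of 67.1%. The KO and WT libraries were apart for 22 of the 29 (75.9%, background 82.5). The median log2 fold change was -0.08 over the members and -0.01 over all genes. A fold of at least 2 was reached by 3 higher members (10.3%, background 10.1) and 2 lower ones (6.9%, background 11.3). In bulk RNA, fewer cells transcribing a gene and less RNA of it per cell cannot be told apart.

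The higher calls with the largest fold were posterior genes of paralog group 13. HOXB13 had 2.697 and 2.23 CPM in H1944 KO against 0.1303 and 0.1403 CPM in H1944 WT. Those were 78 and 68 counts in the KO libraries against 3 and 3 counts in the WT libraries, so the WT level sat at the floor. The depth-scaled count ratio was 17.6 (95% exact interval 7.91 to 48.9), and the log2 fold change was 4.14 (SE 0.45, adjusted p = 4.3e-08). HOXD13, whose promoter is printed above, had 7.71 and 6.997 CPM in H1944 KO against 2.04 and 1.59 CPM in H1944 WT, or 223 and 213 counts against 47 and 34. Its count ratio was 3.90 (3.07 to 5.01) and its log2 fold change 2.01 (SE 0.20, adjusted p = 1.1e-08). HOXC13 had 8.02 and 6.603 CPM in H1944 KO against 2.78 and 4.11 CPM in H1944 WT (log2 fold change 1.09, SE 0.19, adjusted p = 4.4e-05). HOXA13 completes the group, at 1.45 and 1.64 CPM in H1944 KO against 0.956 and 1.496 CPM in H1944 WT. Its libraries overlapped and it was not called (log2 fold change 0.34, SE 0.33, adjusted p = 0.376).

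**Figure D3:**
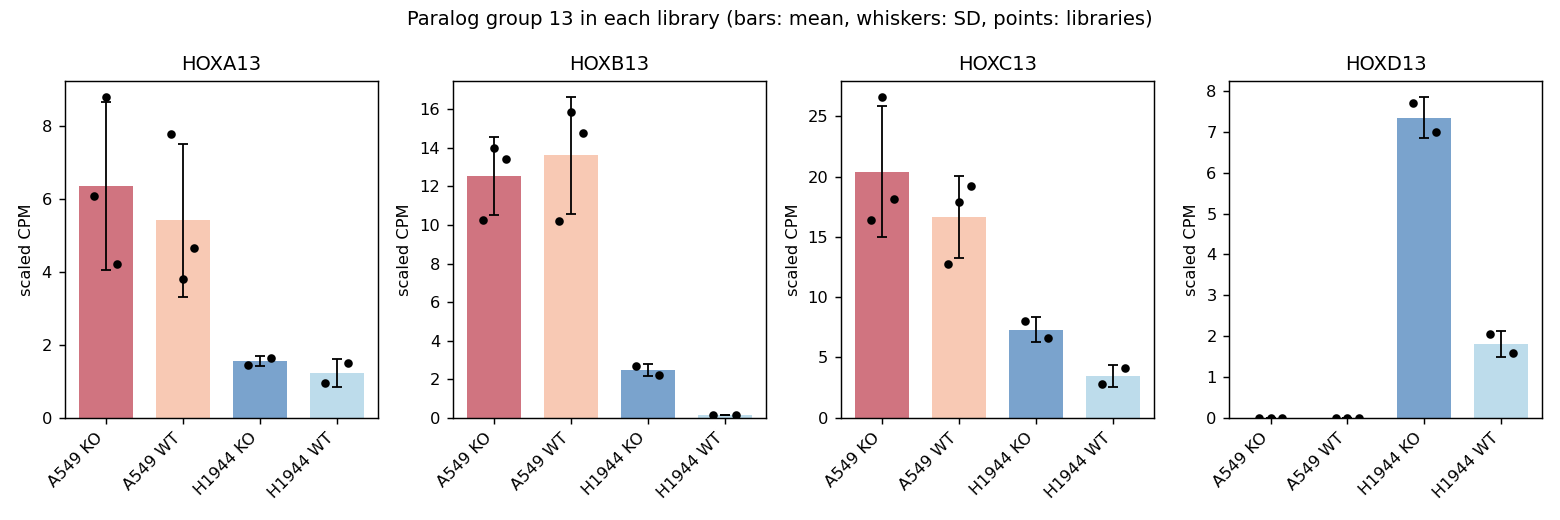
Scaled CPM of the 4 paralog group 13 genes in each group (bars: mean; whiskers: SD; points: libraries; n = 3 for A549 groups and 2 for H1944 groups), each panel with its own axis from 0. HOXB13, HOXC13 and HOXD13 are higher in both H1944 KO libraries than in both H1944 WT libraries, while the A549 KO and A549 WT libraries overlap for HOXA13, HOXB13 and HOXC13 and are at 0 for HOXD13.

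Other higher genes came from the anterior and central HOXB cluster and from HOXA. HOXB2, a hindbrain gene, had 11.7 and 13.2 CPM in H1944 KO against 6.95 and 7.81 CPM in H1944 WT (log2 fold change 0.76, SE 0.13). HOXB4 had 9.16 and 7.39 CPM in H1944 KO against 5.08 and 4.49 CPM in H1944 WT (0.79, SE 0.17), and HOXB8 6.98 and 6.11 against 4.47 and 3.55 CPM (0.70, SE 0.18). For these 3 genes both KO libraries were above both WT libraries, and the call held with any 1 library left out. HOXB3 had 13.5 and 12.7 CPM in H1944 KO against 8.95 and 10.8 CPM in H1944 WT (log2 fold change 0.41), and its call was lost without WT 1 (adjusted p = 0.0796). HOXB7 differed little, at 25.7 and 24.6 CPM in H1944 KO against 21.2 and 22.3 CPM in H1944 WT (0.21), and was not called without KO 1 (adjusted p = 0.151) or WT 1 (0.114). With HOXB13, the HOXB cluster thus had 6 of its 9 tested members higher and 1 lower, beside 33.2% of all genes higher and 33.9% lower. In HOXA, HOXA10 had 23.9 and 20.9 CPM in H1944 KO against 17.4 and 19.2 CPM in H1944 WT (0.29), and was not called without KO 1 (adjusted p = 0.145) or WT 1 (0.0573). The edgeR fits without 1 library assume that a lone library varies like the others.

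The lower genes lay mostly in the central parts of HOXC and HOXA. HOXC4, which with HOXC5 and HOXC6 shares its outermost start, had 4.94 and 5.91 CPM in H1944 KO against 13.2 and 11.5 CPM in H1944 WT (log2 fold change -1.19, SE 0.14, adjusted p = 2.6e-07). Both KO libraries were below both WT libraries. HOXC6 had 2.39 and 3.45 CPM in H1944 KO against 5.69 and 4.26 CPM in H1944 WT (-0.77, SE 0.22), while HOXC5, listed with the same promoter as HOXC4, had 0.311 and 0.657 against 0.391 and 0.655 CPM, with overlapping libraries and no call (-0.09, SE 0.53). The HOXC6 call was lost without KO 1 (adjusted p = 0.0652) or WT 1 (0.0600). HOXC8, known for motor neurons of the brachial spinal cord, had 2.905 and 3.06 CPM in H1944 KO against 4.78 and 5.24 CPM in H1944 WT (-0.75, SE 0.20). HOXC10, the leading gene of the line, was lower by a small margin, at 46.3 and 50 CPM in H1944 KO against 53.1 and 54.1 CPM in H1944 WT (-0.15, SE 0.06), and was not called without KO 1 (adjusted p = 0.249) or WT 2 (0.0571). In total 4 of 8 tested HOXC members were lower and only HOXC13 was higher, beside 33.9% of all genes lower and 33.2% higher.

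Of HOXA, HOXA3, which patterns the third pharyngeal arch, had 19.2 and 21.3 CPM in H1944 KO against 26.3 and 26.3 CPM in H1944 WT (log2 fold change -0.37, SE 0.08). HOXA6 had 0.553 and 0.788 against 1.82 and 1.03 CPM (-1.09, SE 0.40), and was not called without KO 1 (adjusted p = 0.119) or WT 1 (0.369). HOXA7 had 6.47 and 5.62 against 7.64 and 9.26 CPM (-0.48, SE 0.16), and was not called without KO 2 (0.0884) or WT 2 (0.111). In the HOXB cluster HOXB6, the neighbour of HOXB7, was lower, at 8.51 and 9.66 CPM in H1944 KO against 11.7 and 12.95 CPM in H1944 WT (-0.44, SE 0.12). HOXB5, on its other side, had 6.12 and 6.27 against 8.51 and 7.06 CPM and did not pass (-0.33, adjusted p = 0.0667). By position, 3 anterior members were higher and 1 lower of 5 tested, 3 central members were higher and 6 lower of 14, and 4 posterior members were higher and 1 lower of 10. Over all genes, 33.2% were higher and 33.9% lower, and a difference between positions was not tested.

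The members tested in H1944 and not called were HOXA2 (log2 fold change 0.49), HOXA4 (-1.21, with an SE of 0.56), HOXA5 (-0.21), HOXA11 (-0.02), HOXA13, HOXB5, HOXB9 (-0.08), HOXC5, HOXC9 (0.06), HOXC11 (-0.11) and HOXD8 (-0.12). The lung development genes HOXA5 and HOXB5 were among them. The 10 members below the count filter in H1944 were HOXA9, HOXB1, HOXC12 and the HOXD genes other than HOXD8 and HOXD13, so a difference in them was not detectable at this depth. Of the 18 calls, 10 held with any 1 library left out. For the other 8, the lowest adjusted p over the 10 alternatives ran from 1.8e-04 to 0.0187 between genes and the highest from 0.132 to 0.758. DESeq2 gave 6 higher and 5 lower members, and leaving out WT 1 gave 6 higher and leaving out KO 1 gave 5 lower. One fit of all 10 libraries, which takes in the wide spread of A549, called only HOXB13 and HOXD13 higher and HOXC4 lower. These 3 genes were the ones called under all 10 alternatives run for H1944.

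**Figure D4:**
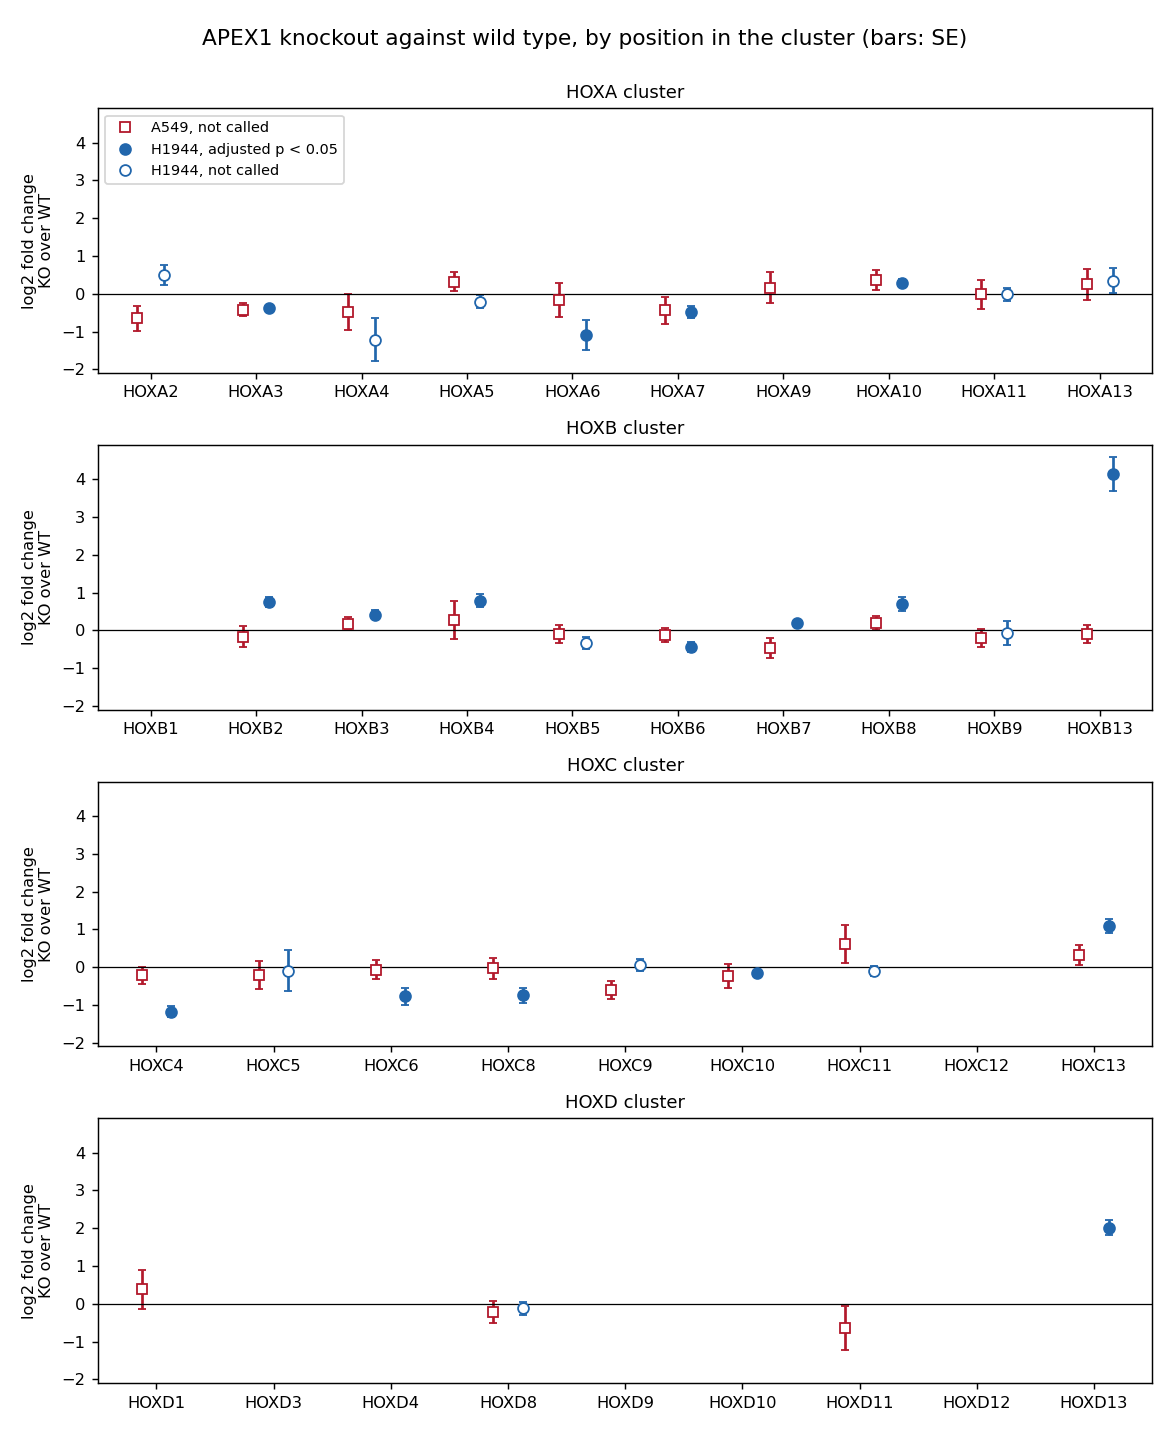
Log2 fold change, KO over WT, of tested HOX genes in A549 (red squares) and H1944 (blue circles, filled where adjusted p is under 0.05), by position in the 4 clusters (bars: SE of the edgeR fit). HOXB13, HOXC13 and HOXD13 stand highest at the posterior ends in H1944, at 4.14, 1.09 and 2.01, while no A549 value was called.

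In A549, no HOX gene passed the test, and neither did APEX1 itself (log2 fold change -1.51, edgeR adjusted p = 0.521). The absence of calls therefore does not show that HOX genes were unchanged in A549. Of 31 members tested, 0 were called by edgeR, against 1 of 15806 genes (0.00633%), and DESeq2 and limma-voom called 0 members as well. An unadjusted edgeR p under 0.05 was reached by 3 members, HOXA3 and HOXC9 among them, against 895 of all genes (5.66%). The median log2 fold change was -0.09 over the members and 0.02 over all genes, and leaving out any library gave 0 calls. KO and WT libraries were apart for 3 of 31 members (9.68%), near the background of 10.6.

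HOXA2 and HOXA3 were among those 3 members. HOXA2, which sets the identity of the second pharyngeal arch, had 2.197, 1.45 and 2.56 CPM in A549 KO against 3.73, 3.296 and 2.87 CPM in A549 WT, and every KO library was below every WT library (log2 fold change -0.65, SE 0.33, adjusted p = 0.952). Within the library sets its log2 difference, on CPM plus 0.1, was -1.30 for KO 65 against WT 1, and -0.47 and -0.26 for KO 16 and KO 66 against the mean of WT 2 and WT 3. HOXA3 had 19.9, 21.5 and 22.4 CPM in A549 KO against 30.3, 27.1 and 29.8 CPM in A549 WT, with no overlap either (log2 fold change -0.43, SE 0.17, adjusted p = 0.862), and differences within the sets of -0.49, -0.51 and -0.34. A 2-sided exact permutation test of 1 gene cannot give a p below 0.1 with 3 against 3 libraries, or below 0.333 with 2 against 2.

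The members with the largest folds in H1944 did not pass the test in A549. HOXB13 had 10.3, 13.98 and 13.4 CPM in A549 KO against 10.2, 15.9 and 14.8 CPM in A549 WT (log2 fold change -0.09, SE 0.24), and HOXC13 had 16.4, 26.6 and 18.2 against 12.8, 17.9 and 19.2 CPM (0.32, SE 0.26). HOXC4 had 6.18, 5.31 and 6.64 CPM in A549 KO against 6.31, 8.24 and 6.92 CPM in A549 WT (-0.21, SE 0.23). The libraries of the 2 genotypes overlapped for all 3. For KO 65 against WT 1, the log2 difference (on CPM plus 0.1) was 1.05 in HOXC13, 0.45 in HOXB13 and -0.24 in HOXC4. For KO 16 and KO 66 against the mean of WT 2 and WT 3, it was -0.17 and -0.03 in HOXC13. In the same comparison it was -0.58 and -0.19 in HOXB13, and -0.29 and -0.18 in HOXC4. The library sets thus differed in sign for HOXC13 and HOXB13. HOXC9, a thoracic motor neuron gene, had 7.37, 8.26 and 10.3 CPM in A549 KO against 10.04, 13.9 and 16.3 CPM in A549 WT (-0.61, adjusted p = 0.865), and KO 66 lay above WT 1. HOXB7 had 25.4, 22.6 and 26.1 CPM in A549 KO against 21.9, 41.4 and 41.3 CPM in A549 WT (-0.46, SE 0.27), and WT 1 lay below all KO libraries while WT 2 and WT 3 lay above them. The other tested members given here had log2 fold changes between -0.64 and 0.60. Below the count filter in A549 were HOXB1, HOXC12, HOXD3, HOXD4, HOXD9, HOXD10, HOXD12 and HOXD13.

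Whether the knockout acted differently in the lines was tested as an interaction, the A549 KO effect minus the H1944 KO effect, in one fit of all 10 libraries. Of 33 members tested, 1 was called, HOXB13, lower in A549, which is 3.03% of the members, against 6.95% of all genes called in either direction and 2.85% called lower. Its log2 difference was -4.25 (SE 0.44, adjusted p = 0.00102), and it was called under all 14 alternatives run for this comparison. The H1944 WT level of 3 counts per library lies at the floor, so the size of this difference is uncertain. HOXC4 had a log2 difference of 0.94 (SE 0.30, adjusted p = 0.105) and was called by DESeq2 only (0.0476, with a range of 0.0476 to 0.393 over the alternatives). Without A549 WT 1, HOXB7 was called as well (-0.95, adjusted p = 0.0147, with a range of 0.0147 to 0.569 over the alternatives). For HOXD13 no difference can be given, since A549 held no counts. The interaction shares its libraries with the comparisons above, so it is no independent measurement of them.

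Transcripts and genes next to the clusters were set beside the members. Of 18 long non-coding RNAs of the clusters, 16 were in the tables and 13 were tested in H1944, of which 3 were higher and 6 lower in KO (median log2 fold change -0.38 over the list and -0.01 over all genes). Over all genes tested in H1944, 33.2% were higher and 33.9% lower in KO. HAGLR, an antisense RNA of the HOXD cluster, had 3.15 and 2.69 CPM in H1944 KO against 6.17 and 6.87 CPM in H1944 WT (log2 fold change -1.16, SE 0.19). HOXA-AS2 had 2.42 and 3.02 CPM in H1944 KO against 5.43 and 5.99 CPM in H1944 WT (-1.06, SE 0.20), and HOXB-AS3 (-0.69) and HOXA-AS3 (-0.60) were lower too. In each of these cases both KO libraries were below both WT libraries, but without a stated strand setting their reads may include those of the sense genes. Between the lines, 2 of 13 tested lncRNAs were higher and 6 lower in A549 WT (median -0.89), against 20% of all genes higher and 21.2% lower. HOTAIR, which lies in HOXC between HOXC11 and HOXC12 and is known for binding chromatin modifiers, had 0.717, 0.0915 and 0.236 CPM in A549 WT against 5.86 and 6.83 CPM in H1944 WT (-4.17, SE 0.69). HOXC-AS3 (-4.19) and HOXA10-AS (-0.89) were lower and HOXC13-AS (2.29) was higher in A549 WT.

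Of 15 protein-coding genes flanking the clusters, 10 were tested in H1944, with 2 higher and 6 lower in KO (median -0.15). The shares over all genes were 33.2% higher and 33.9% lower. SNX10 (-1.20), HIBADH (-0.65), LNPK (-0.69) and CBX5 (-0.26 on the log2 scale) were lower. PRAC2, next to HOXB13, had 0.526, 0.503 and 0.377 CPM in A549 WT and no count in H1944 WT, and 0 and 0.0657 CPM in H1944 KO. It was thus near the floor in the group where HOXB13 was higher.

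Cofactors and regulators of HOX genes were also counted, from lists of general knowledge. Of 8 tested TALE homeodomain cofactors, which bind DNA together with HOX proteins, 4 were higher and 3 lower in H1944 KO (median 0.23). The shares over all genes were 33.2% higher and 33.9% lower. PBX4 had 2.63 and 2.37 CPM in H1944 KO against 0.478 and 0.187 CPM in H1944 WT (log2 fold change 2.87, SE 0.40), and MEIS3 (0.96) was higher too. MEIS2 had 7.81 and 8.61 CPM in H1944 KO against 15.2 and 15.3 CPM in H1944 WT (-0.89, SE 0.12). PBX4 and MEIS2 also passed the interaction test (-3.02, adjusted p = 0.0485, and 1.36, adjusted p = 0.0383), 1 lower and 1 higher of 8 tested. Over all genes, 6.95% were called in that test. Both p-values lay just under 0.05, and alternatives are not given for these genes. In A549, PBX4 had 2.59 CPM in KO 65 against 1.29 CPM in WT 1. In the other library set it had 2.20 and 3.37 CPM in KO against 3.94 and 3.77 CPM in WT, so the sets differed in direction.

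Of 12 subunits of Polycomb repressive complex 2, which lays down the silencing mark on inactive HOX genes, 2 were higher and 7 lower in H1944 KO (median -0.17). Its methyltransferase EZH2 had 53.04 and 55.2 CPM in H1944 KO against 89.2 and 88.9 CPM in H1944 WT (-0.72, SE 0.05), SUZ12 (-0.47) and PHF19 (-0.54) were lower, and the accessory factor JARID2 (0.93) was higher. Of 16 subunits of Polycomb repressive complex 1, 6 were higher and 1 lower (median 0.09), among them PHC1 (0.47), PCGF1 (0.53) and CBX6 (0.30), with PHC3 lower (-0.52). Of 13 trithorax, MLL complex and related activator genes, which help keep HOX genes active, 4 were higher and 6 lower (median -0.10). ASH2L fell by 1.14 on the log2 scale, and KDM6A (-0.63), DOT1L (-0.60) and RBBP5 (-0.51) were lower. Both directions occurred in every list, and these shares are to be read against the 67.1% of all genes that were called.

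Of 13 tested genes of retinoic acid synthesis and response, 7 were higher and 5 lower in H1944 KO (median 0.30). The shares over all genes were 33.2% higher and 33.9% lower. RDH10, which makes retinaldehyde, had 16.98 and 17.7 CPM in H1944 KO against 65.1 and 64.3 CPM in H1944 WT (-1.90, SE 0.06). The receptor gene RARB, itself a retinoic acid target, had 15.8 and 17.5 CPM in H1944 KO against 51.9 and 49.2 CPM in H1944 WT (-1.60, SE 0.07). The receptor RARG (1.16) was higher. CDX2, of the family that acts upstream of posterior HOX genes, had 0.553 and 0.526 CPM in H1944 KO against 0.347 and 0.0468 CPM in H1944 WT and was not called (1.40, adjusted p = 0.0694). In A549, edgeR and limma-voom called 0 of the 88 tested genes of these lists, 3 had an unadjusted edgeR p under 0.05, and DESeq2 called 1. That was ALDH1A3, an enzyme that makes retinoic acid, with 163, 71.3 and 81.9 CPM in A549 KO 16, 65 and 66 against 21.8, 20.2 and 22.6 CPM in A549 WT 1, 2 and 3 (DESeq2 log2 fold change 2.29, SE 0.37, adjusted p = 1.6e-06). Every KO library was above every WT library, and the edgeR adjusted p was 0.505.

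**Figure D5:**
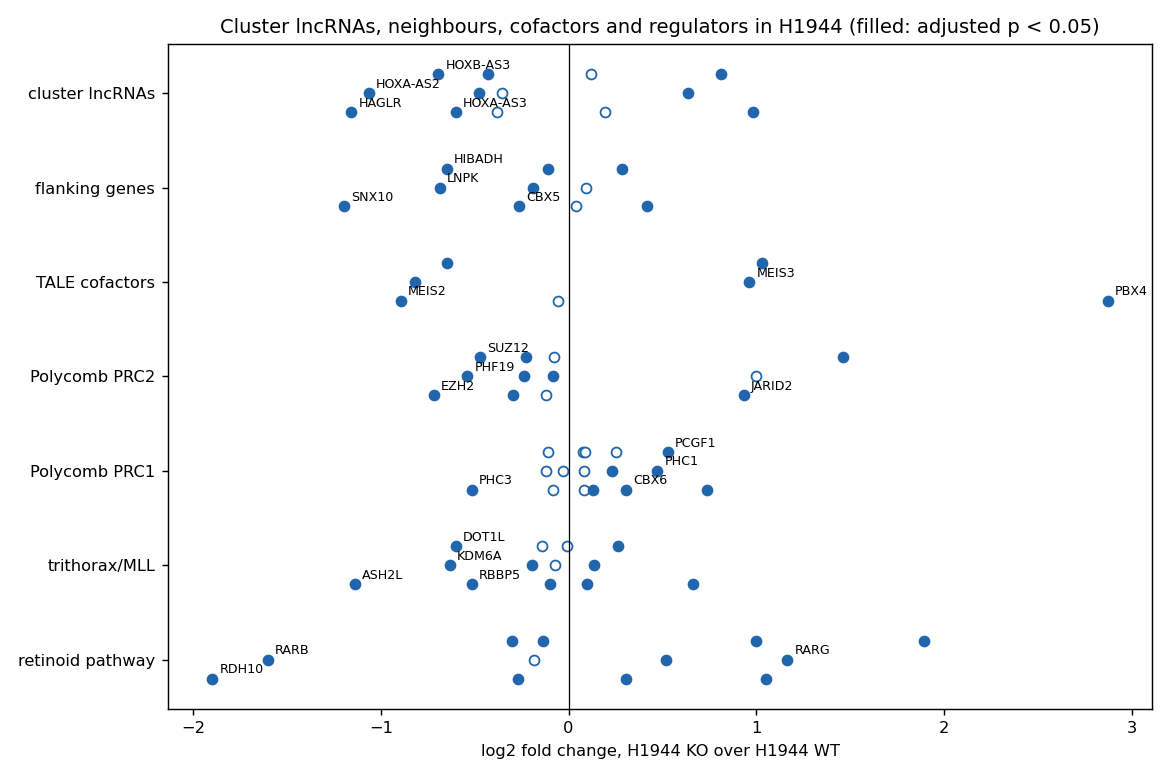
Log2 fold change, H1944 KO over H1944 WT, of tested genes in 7 lists: cluster lncRNAs, flanking genes, TALE cofactors, Polycomb PRC2 and PRC1, trithorax, MLL and related activator genes (labelled trithorax/MLL) and the retinoid pathway (filled: adjusted p under 0.05; open: not called; vertical offsets only separate points). Filled points lie on both sides of 0 in every list, from -1.90 for RDH10 to 2.87 for PBX4.

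Markers of cell identity moved in the same libraries. The H1944 counts below are to be read against all genes, of which 33.2% were higher and 33.9% lower in KO. Of 10 tested lung epithelial markers, 2 were higher and 7 lower in H1944 KO, with CDH1 at 7.86 CPM in H1944 KO against 207 CPM in H1944 WT and EPCAM at 0.931 against 68.8 CPM, as means of 2 libraries. The keratins KRT8 (0.81) and KRT18 (0.98) were higher, so the summed level of the list was 17174 to 17601 CPM in H1944 KO and 9682 to 9838 CPM in H1944 WT. Of its 15 genes, NKX2-1, SFTPA1, SFTPA2, SFTPC and FOXA2 were at 0 in H1944 KO, and NKX2-1 in H1944 WT. Fibroblast markers had 4 higher and 1 lower of 7 tested, with sums of 24.1 to 27.1 CPM in H1944 KO and 19.2 to 21.4 CPM in H1944 WT, and COL1A2 and PDGFRA at 0 in KO and THY1 at 0 in WT. Endothelial markers had 1 higher and 0 lower of 2 tested (31.85 to 31.96 CPM in KO and 22.8 to 24.6 CPM in WT), with KDR at 0 in KO and CDH5, KDR and TEK at 0 in WT. EGFL7 made up most of this sum, at 30.3 and 30.3 CPM in H1944 KO against 22.9 and 21.3 CPM in H1944 WT. Leukocyte markers had 1 higher and 0 lower of 3 tested (57.2 to 59.6 CPM in KO and 34.1 to 34.9 CPM in WT), with PTPRC, CD3E and MS4A1 at 0 in KO and CD3E and MS4A1 at 0 in WT. CD68 made up most of that sum, at 53.3 and 51.3 CPM in H1944 KO against 26.2 and 27.9 CPM in H1944 WT. In A549 the epithelial sums were 11824 to 25948 CPM in KO and 10531 to 26677 CPM in WT. The part of these differences in the HOX results was not tested.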

How the data were processed

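Poly(A)-selected RNA of A549 and H1944 cells was sequenced as paired 150-base reads, per the labels' protocols. The authors deposited 1 table of raw read counts for each line, with gene symbols as names. The submitters' processing notes name Trim Galore 0.5.0, HISAT2 2.1.0, featureCounts 1.6.4, DESeq2 and hg38. The annotation, strand setting and treatment of multiply mapped reads are not given in the sources used here. The A549 columns 65, 16 and 66 carry no genotype and were taken as KO, the only A549 group left once the WT columns were named.

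Counts were tested with edgeR 4.0.16 in R 4.3.3 (robust quasi-likelihood fit, TMM, filterByExpr with a minimum count of 10, Benjamini-Hochberg adjustment over all genes tested, threshold 0.05), per line for KO against WT, in the 5 WT libraries for A549 against H1944, and in all 10 libraries for the interaction. Standard errors are the fold change divided by the root of F. Levels are CPM scaled by TMM over all 10 libraries, and CPM per kb uses, for each gene, the longest GENCODE v29 transcript that is linked to RefSeq. Intervals of count ratios are exact (Clopper-Pearson, 95%), and these and floors cover counting error only. Alternatives were DESeq2 1.42.0, limma-voom (limma 3.58.1), other normalizations and filters, a replicate block, library sets and each library left out. The fits were tested on simulated counts. Same-numbered H1944 KO and WT libraries deviated together with a correlation of 0.0101 over 16626 genes, so the numbers were not taken as pairs.

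All members enter the counts, while the values of a few genes are not reported here. Values of every library are given for the other members called between KO and WT or in the interaction, for the leading members, for A549 members whose groups do not overlap and for the main line differences, and each list of related genes is represented by up to 4 genes of lowest p. The members and lists were chosen with earlier results of these data known.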

Additional observations from a re-analysis of the deposited data

Results flagged for a closer look

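The difference between KO and WT in HOXB13 was not the same in the lines. Its log2 fold change, KO over WT, was -0.09 in A549 and 4.14 in H1944, and the difference of -4.25 passed the interaction test (edgeR adjusted p = 0.00102). The A549 libraries held it at 10.3, 13.98 and 13.4 CPM in KO and 10.2, 15.9 and 14.8 CPM in WT, and the H1944 libraries at 2.70 and 2.23 CPM in KO and 0.130 and 0.140 CPM in WT. The H1944 KO level stayed below every A549 library.

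The HOXA2 libraries were apart in opposite directions in the lines. All A549 KO libraries were below all A549 WT libraries (log2 fold change -0.65), and both H1944 KO libraries were above both H1944 WT libraries (0.49). Neither difference passed its own test (adjusted p = 0.952 in A549 and 0.105 in H1944), and the difference of -1.16 did not pass the interaction test (adjusted p = 0.155).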

How the results depend on the processing

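In A549 KO against WT, 0 members were called under every alternative run. For H1944 KO against WT, the counts were 10 higher and 8 lower, DESeq2 gave 6 and 5, one fit of all 10 libraries gave 2 and 1, and leaving out 1 library gave 6 to 10 higher and 5 to 7 lower. With the replicate number as a replicate block, the H1944 counts were again 10 and 8. No paired analysis was possible in A549 because the KO columns carry no numbers shared with the WT columns. For A549 WT against H1944 WT, leaving out 1 library gave 3 to 16 higher and 2 to 9 lower members, against 13 and 8. In the interaction, DESeq2 added 1 higher member, and leaving out 1 library gave 1 to 2 lower. Against the WT result, the KO libraries of the lines, an alternative chosen after seeing the data, turned HOXA2 to -0.31 and HOXC4 to 0.14 on the log2 scale. The number of transcribed members stayed within 1.5 times its value under other CPM thresholds and scalings. The cause of these changes was not tested, and the shares of all genes called under the alternatives are not given here. Depth limits the members under 1 CPM, most of them HOXD genes, and the HOXB13 fold in H1944, which rests on 3 counts in each WT library.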
